A study of Homo sapiens with 39 samples.

Results

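ESM1, the angiopoietins ANGPT1 and ANGPT2, the vascular growth factors VEGFB, VEGFC, PGF and FGF2, and the matrix protein THBS1 were followed in irradiated cultures of U87-MG, a human glioblastoma cell line in long use. These 8 genes, of 20041 genes named by a probe, were chosen by function, as secreted regulators of blood vessels, with earlier results of the same arrays already known. Their changes against 0Gy on each day, and between 16Gy and 8Gy on day 6, had thus been seen before the choice. These changes are given below as a description, and the calls, counts and p-values that go with them are no independent test. The genes had 15 probes, and each gene was represented by its probe with the highest mean signal over all samples.

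Expression was measured with Illumina HumanHT-12 v4 bead arrays in 39 samples. Cells of the 1 line received 0, 8 or 16Gy of gamma rays in a single exposure, and the 0Gy cells were sham-irradiated in parallel. RNA was taken from all 3 doses after 1, 4 and 6 days (3 samples per dose and day) and about 35 days later (4 samples per dose). At the late time the 4 samples came from 3 independent experiments, and the labels do not say which of them share one. Replicate 1 of each short-term group was the authors' mean of a pair of technical runs. No variant, transgene or drug distinguished the groups.

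Signals are on the log2 scale. A signal counted as above background when fewer than a share of 0.05 of the 455 olfactory receptor probes on its array were as bright, a limit between 6.78 and 6.9 log2 units. Of the 8 genes, 7 passed this limit in every sample of at least 1 group and were tested among 11296 such genes. A gene was called changed when its fold change exceeded 1.5 and its limma p-value, adjusted by the Benjamini-Hochberg method over the 11296 genes, was under 0.1. Short-term and day 35 samples were normalized separately and are compared only within their own set, except in 1 alternative, an analysis of variance over all 12 groups.

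The vascular growth factors signal from the cells that secrete them to receptors on the endothelium. VEGFB and PGF bind the receptor FLT1, VEGFC binds FLT4 and KDR, FGF2 binds the FGF receptors, and the angiopoietins bind TEK, which ANGPT1 activates and ANGPT2 can block. ESM1, or endocan, is a soluble proteoglycan first described in endothelial cells, and THBS1 is a secreted inhibitor of angiogenesis. Tumour cells, glioblastoma cells among them, can themselves make many of these factors.

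The cultures were checked against cell type markers. Of 7 endothelial markers none was tested: CDH5, CLDN5, EMCN, ROBO4 and ERG were above background in 0 of 39 samples, VWF in 2 and PECAM1 in 9. The summed signal of the 7 endothelial probes was 664 to 692 in 16Gy cells and 675 to 700 in 0Gy cells on day 6. VIM, NES and CD44 were above background in all 39 samples, whereas the astrocyte markers GFAP and S100B were so in 0. Of 5 pericyte and smooth muscle markers, CSPG4 and ACTA2 were above background in all 39 samples, RGS5 in 2 and MCAM and MYH11 in 0. Their summed signal was 3105 to 3526 in 16Gy cells and 2089 to 2678 in 0Gy cells on day 6, and ACTA2, smooth muscle actin, was called higher there (log2 fold change 0.61, limma adjusted p = 0.003). Of 4 leukocyte and macrophage markers, PTPRC was above background in 0 samples, AIF1 in 33, CD14 in 38 and CSF1R in 39. Their summed signal was 643 to 722 in 16Gy cells and 748 to 994 in 0Gy cells on day 6, and CSF1R, a receptor of macrophages, was called lower there (-0.85, limma adjusted p = 0.00074). The sums are of linear signals and weigh the brightest marker most, here ACTA2 and CSF1R (median log2 signals 11.05 and 9.37 over all samples). At 16Gy on day 6 the median log2 fold change of the tested markers was 0.36 for pericytes and smooth muscle. For leukocytes and macrophages it was -0.14. The part that these markers have in the results below was not tested.

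The promoters of ESM1 and THBS1 are shown because both genes were called higher after 16Gy on day 6, by very different amounts, and because the bases before their start sites differ in composition. Both were taken from RefSeq (GRCh38.p14) as the 250 bases before the start site, printed 5′ to 3′ on the strand of the gene, with TATAAA and GGGCGG on either strand in capitals. ESM1 lies at chr5:54985594-54985843 on the minus strand and THBS1 at chr15:39580829-39581078 on the plus strand.
ESM1: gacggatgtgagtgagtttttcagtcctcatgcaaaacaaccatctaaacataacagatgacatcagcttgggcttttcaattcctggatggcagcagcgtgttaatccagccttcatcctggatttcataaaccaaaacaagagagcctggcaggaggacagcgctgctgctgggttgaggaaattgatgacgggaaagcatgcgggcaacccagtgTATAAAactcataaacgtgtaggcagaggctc
THBS1: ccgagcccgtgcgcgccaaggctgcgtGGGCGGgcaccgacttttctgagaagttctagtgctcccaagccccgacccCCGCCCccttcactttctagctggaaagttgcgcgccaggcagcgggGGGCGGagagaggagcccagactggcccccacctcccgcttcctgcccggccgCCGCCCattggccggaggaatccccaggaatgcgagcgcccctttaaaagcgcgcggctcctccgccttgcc
The ESM1 sequence is 47.6% G or C, against a median of 58% over 35116 human promoters of the same length, and it holds 1 TATAAA that begins 32 bases before the start site. The THBS1 sequence is 69.6% G or C and holds 4 GGGCGG motifs on the 2 strands and no TATAAA. Of the 6 members with an entry in the table, TATAAA was present in 1 and GGGCGG in 5, against 10.7% and 42.6% of all promoters. A TGANTCA motif, present in 6.57% of promoters, was in none of the 6, and TGACG, present in 21.2%, occurred once in each of ESM1, VEGFC and FGF2 and at 2 places in that of PGF. These are matches of letters in a fixed window.

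ESM1 had the largest change of the 7 tested members. It was near background without irradiation, was higher than 0Gy after both doses on days 4 and 6, and was highest 6 days after 16Gy. On day 1 its log2 signals were 6.99, 7.0 and 6.98 at 0Gy, 6.95, 6.87 and 7.28 at 8Gy, and 6.89, 7.05 and 7.25 at 16Gy. All 3 doses overlapped on that day.

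On day 4 the signals of ESM1 were 6.66, 7.04 and 6.76 at 0Gy, 7.45, 7.74 and 7.33 at 8Gy, and 8.52, 8.39 and 7.83 at 16Gy. On day 6 they were 6.75, 7.0 and 6.76 at 0Gy, 8.29, 8.12 and 7.01 at 8Gy, and 9.43, 9.65 and 9.78 at 16Gy. No dose overlapped another on either day, although replicate 3 of the 8Gy cells on day 6 lay only just above the highest 0Gy sample. The log2 fold change against 0Gy was 0.69 at 8Gy and 1.43 at 16Gy on day 4, and 0.97 at 8Gy and 2.78 at 16Gy on day 6 (each SE 0.2), and all 4 were called.

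After 16Gy the ESM1 signal on day 6 was thus 6.88-fold that of 0Gy cells, and 3.51-fold that of 8Gy cells (log2 fold change 1.81, SE 0.2, called). In 0Gy cells ESM1 was above background in only 1 of 3 samples on day 4 and on day 6. With 0Gy samples raised to the background limit of their own array where they lay under it, the fold on day 6 was 6.68 at 16Gy and 1.91 at 8Gy. The 8Gy call on day 4 was lost when any 1 of the 6 samples compared was left out, with log2 fold changes of 0.6 to 0.75. In bulk RNA of a culture, fewer cells that express a gene and less RNA of it per cell cannot be told apart, and this holds for every gene below.

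Ordered by mean, ESM1 stood at 9.62 ± 0.18 in 16Gy cells on day 6, 8.25 ± 0.36 in 16Gy cells on day 4, 7.81 ± 0.7 in 8Gy cells on day 6 and 7.51 ± 0.21 in 8Gy cells on day 4 (SD, n = 3 each). The other 5 short-term groups had means between 6.82 and 7.06. Samples of 16Gy on day 4 overlapped with those of 8Gy on day 6, which overlapped with those of 8Gy on day 4. Through its lowest sample (7.01), 8Gy on day 6 also overlapped with 8Gy and 16Gy on day 1 and with 0Gy on day 4. The highest level overlapped with none of the others, and the 5 lowest groups overlapped with one another.

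By day 35 the signals of ESM1 were 7.03, 7.05, 6.80 and 6.67 at 0Gy, 7.39, 7.17, 6.88 and 6.87 at 8Gy, and 7.83, 6.96, 6.93 and 6.83 at 16Gy. The doses overlapped, and 1 sample at 16Gy stood above the rest. Against 0Gy the log2 fold changes of 0.19 (8Gy) and 0.25 (16Gy) had an SE of 0.19 each, and neither was called. With replicate number as a term the SE was 0.11 each, again without a call. Within a replicate number ESM1 was higher at 8Gy in 4 of 4, by 0.08 to 0.37.

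On days 4 and 6 the second ESM1 probe gave smaller differences in the same direction. On day 6 it averaged 7.63 ± 0.33 at 16Gy and 6.56 ± 0.23 at 0Gy (SD, n = 3 each), a difference of 1.07 with no overlap. At 8Gy on that day it averaged 7.07 ± 0.24, which was 0.5 above 0Gy, again with no overlap. On day 4 the doses overlapped on this probe, with a difference of 0.31 between 16Gy and 0Gy. It was above background in 0 of 3 samples of 0Gy cells on day 6, so the differences on that day are taken against a signal that was not above background.

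**Figure D1:**
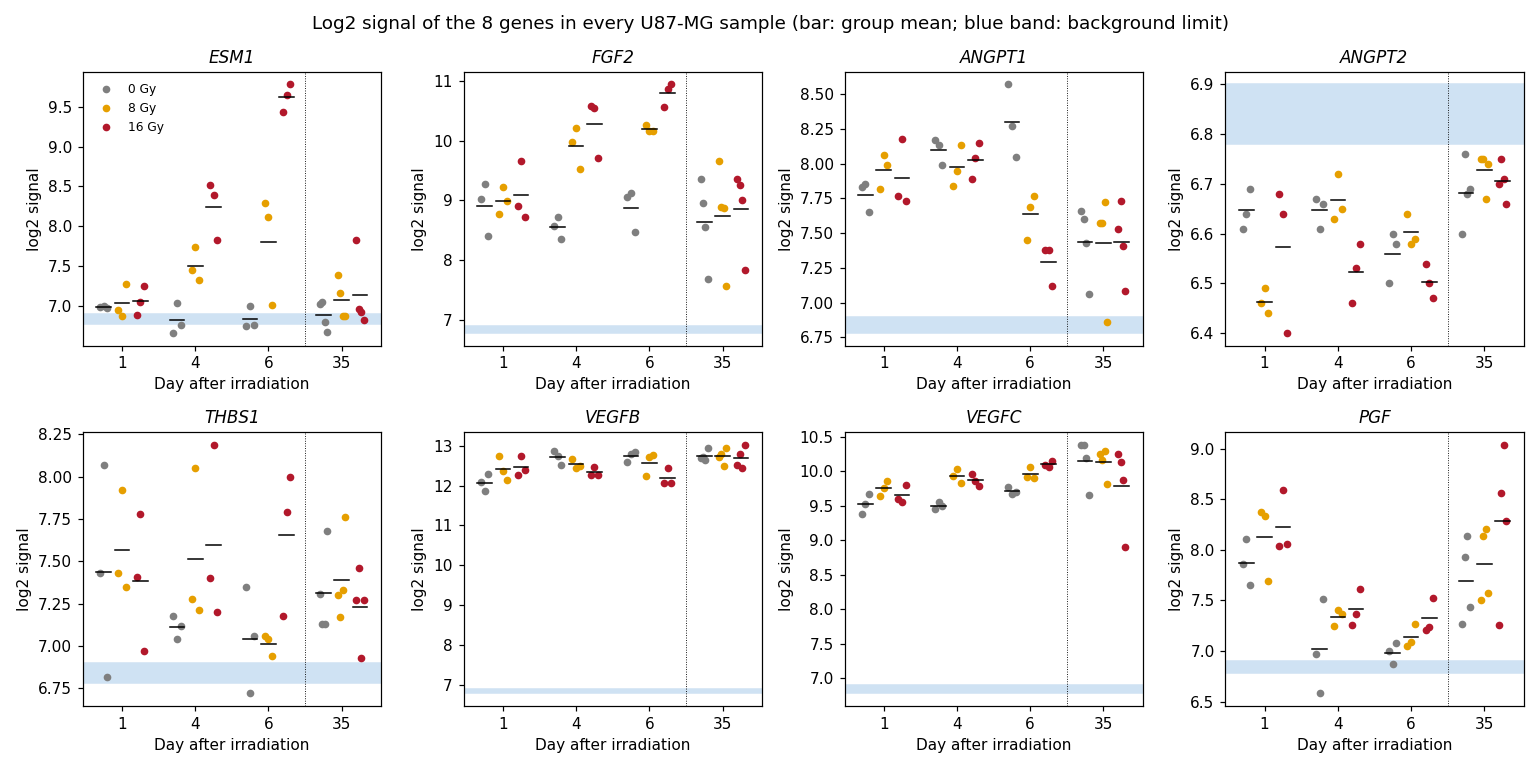
Log2 signal (vertical axis) of each of the 8 genes in every sample against the day after irradiation (horizontal axis), with 0, 8 and 16Gy in grey, orange and red, group means as bars and the background limit as a blue band; each panel has its own scale and the dotted line separates the separately normalized day 35. ESM1 is within 9.43 to 9.78 at 16Gy on day 6, above all other samples of the gene, ANGPT1 is lowest at 16Gy on day 6 among the short-term groups, and ANGPT2 stays under the background band throughout.

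FGF2, a heparin-binding mitogen for endothelial and many other cells, rose at both doses by day 4 and remained high on day 6. On day 4 its log2 signals were 8.57, 8.72 and 8.36 at 0Gy, 9.98, 10.21 and 9.53 at 8Gy, and 10.58, 10.54 and 9.71 at 16Gy. On day 6 they were 9.05, 9.12 and 8.47 at 0Gy, 10.26, 10.16 and 10.16 at 8Gy, and 10.56, 10.86 and 10.94 at 16Gy. Every irradiated sample was above every 0Gy sample of its day, the doses 16Gy and 8Gy overlapped on day 4, and on day 6 they did not.

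The log2 fold change of FGF2 on day 4 was 1.36 at 8Gy and 1.73 at 16Gy, and on day 6 it was 1.31 at 8Gy and 1.91 at 16Gy (SE 0.18 each), with all 4 called. These are folds of 2.56 and 3.31 on day 4 and of 2.49 and 3.75 on day 6. Between 16Gy and 8Gy on day 6 the log2 fold change was 0.59 (SE 0.18), which was not called. No call against 0Gy was lost when a sample was left out.

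On day 1 the FGF2 signals lay between 8.41 and 9.65 over all 3 doses and overlapped, with log2 fold changes of 0.1 at 8Gy and 0.19 at 16Gy. On day 35 they were 9.35, 8.96, 8.56 and 7.69 at 0Gy, 9.65, 8.89, 8.87 and 7.57 at 8Gy, and 9.36, 9.25, 9.0 and 7.84 at 16Gy. Replicate 4 was the lowest at each dose, and the spread within a dose exceeded the differences between doses. The log2 fold changes there were 0.1 and 0.22 (SE 0.46 each, and 0.12 with replicate number as a term), and 16Gy was above 0Gy in 4 of 4 replicate numbers, by 0.01 to 0.44.

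The second FGF2 probe averaged 9.23 ± 0.14 at 16Gy against 7.41 ± 0.11 at 0Gy on day 6, and 8.63 ± 0.1 at 8Gy on that day (SD, n = 3 each). The groups did not overlap, and the differences from 0Gy were 1.81 at 16Gy and 1.21 at 8Gy. Its differences on day 4 were 1.18 at 16Gy and 0.87 at 8Gy, without overlap.

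ANGPT1, the ligand that activates TEK, was lower than 0Gy on day 6 and was not called on the other 3 days. Its log2 signals on day 6 were 8.57, 8.27 and 8.05 at 0Gy, 7.45, 7.69 and 7.77 at 8Gy, and 7.38, 7.38 and 7.12 at 16Gy. The 3 doses did not overlap and the order was that of dose, from the highest at 0Gy. Against 0Gy the log2 fold changes were -0.66 (8Gy) and -1.0 (16Gy), with an SE of 0.14 each, and both were called. Between 16Gy and 8Gy the value was -0.34, not called. The 8Gy call was lost without replicate 1 of the 0Gy cells (-0.49) or replicate 1 of the 8Gy cells (-0.57).

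On day 4 the ANGPT1 signals were 8.17, 8.13 and 7.99 at 0Gy, 7.84, 7.95 and 8.13 at 8Gy, and 7.89, 8.04 and 8.15 at 16Gy, and the doses overlapped. The log2 fold changes were -0.13 and -0.07 on day 4, 0.18 and 0.12 on day 1, and 0.00 at both doses on day 35, with 8Gy given first. On days 1, 4 and 6 ANGPT1 averaged 7.77, 8.1 and 8.3 at 0Gy, so the 0Gy level itself rose. The means were 7.96, 7.97 and 7.64 at 8Gy, and 7.89, 8.03 and 7.29 at 16Gy. On the second probe of the gene the 16Gy cells on day 6 averaged 7.01 ± 0.05 against 7.42 ± 0.27 in 0Gy cells (SD, n = 3 each), without overlap. The 8Gy cells averaged 7.22 ± 0.12 on that probe and overlapped with 0Gy, a difference of -0.20.

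ANGPT2, the context-dependent antagonist of TEK, was not above background in any of the 39 samples on any of its 3 probes. Its brightest probe read between 6.4 and 6.76. The gene was therefore not tested, and no fold change is given.

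**Figure D2:**
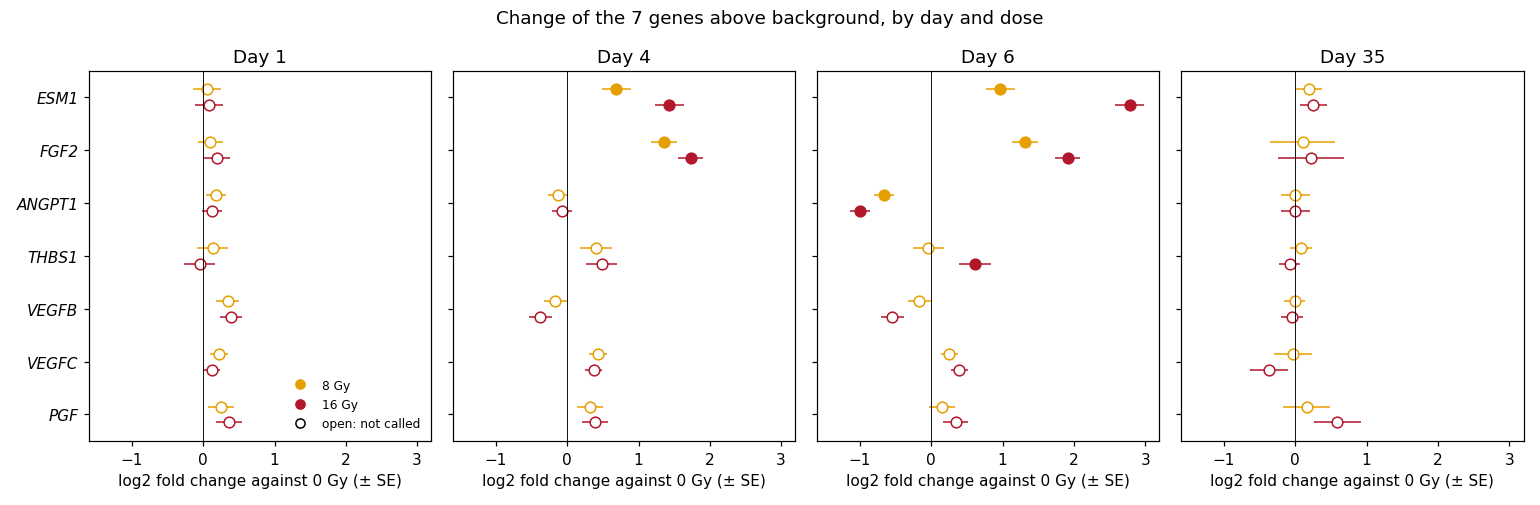
Log2 fold change against 0Gy of the same day (horizontal axis, ± SE from limma) for the 7 members above background (rows) on days 1, 4, 6 and 35 (panels), with 8Gy in orange and 16Gy in red, and filled points for called changes. Calls are present on days 4 and 6 and in neither outer panel, and ESM1 reaches 2.78 at 16Gy on day 6.

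THBS1, a matrix glycoprotein that signals through CD36 and CD47, was called at 16Gy on day 6 only. Its signals there were 7.18, 7.79 and 8.00 at 16Gy, against 7.35, 6.72 and 7.06 at 0Gy. The groups overlapped, since the lowest 16Gy sample was under the highest 0Gy sample, and 2 of 3 same-numbered samples were higher. The log2 fold change was 0.61 (SE 0.22). The call was lost without replicate 2 of the 0Gy cells (0.29), without replicate 3 of the 16Gy cells (0.32) and without the replicate number in the fit.

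At 8Gy on day 6 THBS1 read 7.06, 7.04 and 6.94, a log2 fold change of -0.04. On day 4 it read 7.28, 8.05 and 7.21 at 8Gy and 7.40, 8.19 and 7.20 at 16Gy, against 7.18, 7.04 and 7.12 at 0Gy. Each irradiated group lay above the 0Gy samples, mostly through replicate 2, and the log2 fold changes of 0.4 and 0.48 (SE 0.22) were not called.

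VEGFC, a growth factor of lymphatic and blood vessels, differed from 0Gy on days 4 and 6 by less than the fold limit. On day 6 its signals were 9.77, 9.67 and 9.70 at 0Gy, 9.92, 10.06 and 9.91 at 8Gy, and 10.10, 10.07 and 10.15 at 16Gy. The doses did not overlap on that day. The log2 fold changes were 0.43 at 8Gy and 0.37 at 16Gy on day 4 and 0.25 and 0.39 on day 6 (SE 0.12 each), none called. On day 35 the 16Gy value was -0.37 (SE 0.27), with overlapping samples, and 16Gy was below 0Gy in 4 of 4 replicate numbers, with differences between -0.76 and -0.14 (SE 0.14 with replicate number as a term).

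VEGFB, a ligand of FLT1, read 12.06, 12.45 and 12.07 at 16Gy on day 6, against 12.60, 12.79 and 12.84 at 0Gy. The groups did not overlap, and the log2 fold change of -0.55 (SE 0.16) is 1.47-fold lower, just under the limit. It passed the limit without replicate 1 of the 0Gy cells (-0.62) or replicate 2 of the 16Gy cells (-0.67). At 8Gy on day 6 the value was -0.17, with overlap. On day 1 the values were 0.34 at 8Gy and 0.39 at 16Gy, and on day 4 -0.17 and -0.38 (SE 0.16 each), none called. The second VEGFB probe differed by -0.31 between 16Gy and 0Gy on day 6, without overlap, and the other, near background, by -0.03.

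PGF, placental growth factor, was not called at any dose and day. Its log2 fold changes against 0Gy were between 0.15 and 0.39 on days 1, 4 and 6 (SE 0.18). On day 4 it read 7.26, 7.37 and 7.61 at 16Gy, against 6.97, 6.58 and 7.51 at 0Gy, with overlap, and without replicate 3 of the 0Gy cells the log2 fold change was 0.65 and was called. On day 35 it read 7.26, 8.56, 9.04 and 8.28 at 16Gy, against 7.27, 7.93, 8.14 and 7.43 at 0Gy. Replicate 1 was the same at both doses to within 0.01, and the other 3 were higher at 16Gy. The difference of 0.59 (SE 0.33, and 0.15 with replicate number as a term) was called in neither fit.

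Counted over the members, 0 of 7 were called on day 1, when 0.133% of all genes tested were called at 8Gy and 1.22% at 16Gy. At an unadjusted p under 0.05 there was 1 member at each dose on that day. On day 4 each dose had 2 called members, both higher, while over all genes 1.79% (8Gy) and 4.67% (16Gy) were called. On day 6 the 8Gy cells had 3 called members (2 higher, 1 lower) and the 16Gy cells 4 (3 higher, 1 lower), beside 3.23% and 7.86% of all genes. Between 16Gy and 8Gy on day 6, 1 member was called, beside 0.398% of all genes. Because these contrasts were known when the members were chosen, nothing is read from the counts.

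The median log2 fold change of the 7 tested members on day 6 was 0.15 at 8Gy and 0.39 at 16Gy, against -0.03 at each dose over all 11296 genes. On day 35 no member was called at either dose, and limma called 0% of all genes at 8Gy and 0.00885% at 16Gy, a single gene. Neither dose had a member at an unadjusted p under 0.05 on day 35. The one-way analysis of variance also called 0, but its p-value covers all 12 groups at once and is not a test of day 35. With replicate number as a term limma again called 0 members, but at 16Gy 3 (ESM1, PGF and VEGFC) were at an unadjusted p under 0.05, and 9 of all genes were called in place of 1. Without that term, over all genes there were 69 (8Gy) and 445 (16Gy) at that unadjusted p. The same 0Gy samples entered the comparisons of both doses on a day, so the values of the doses are not independent.

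The difference between 16Gy and 8Gy is that of the 2 comparisons with 0Gy, which were known when the members were chosen, and is given as a description. On days 1, 4 and 35 limma called 0%, 0.0177% and 0% of all genes, with 394, 560 and 523 genes at an unadjusted p under 0.05. It called no member on these days, with 0, 1 (ESM1) and 0 members at that unadjusted p. With replicate number as a term on day 35, 2 members (PGF and VEGFC) were at that unadjusted p, again without a call. The largest member difference was that of ESM1 on day 4, with 8.52, 8.39 and 7.83 at 16Gy against 7.45, 7.74 and 7.33 at 8Gy. The groups did not overlap and the log2 fold change was 0.74 (SE 0.2).

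In 0Gy cells, 2 members differed between day 4 and day 1, and 6.43% of all genes were called in that comparison. VEGFB was higher on day 4, at 12.86, 12.75 and 12.52, against 12.08, 11.86 and 12.29 on day 1. The days did not overlap, and the log2 fold change was 0.63 (SE 0.16, limma adjusted p = 0.0074). The call was lost without replicate 2 of day 1 (0.48) or replicate 1 of day 4 (0.53), which brought the fold under the limit.

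PGF was lower in 0Gy cells on day 4, at 6.97, 6.58 and 7.51, against 7.86, 8.11 and 7.65 on day 1. These samples did not overlap either, and the log2 fold change was -0.85 (SE 0.18, limma adjusted p = 0.002). Between day 6 and day 4 of the 0Gy cells no member was called and limma called 0% of all genes, with 455 at an unadjusted p under 0.05.

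The change of the dose effect between days was taken as the difference of log2 fold changes. It is built from the contrasts that were known, so the values are descriptions. From day 1 to day 4 the 16Gy effect changed by 1.35 for ESM1, 1.54 for FGF2 and -0.77 for VEGFB, all 3 called, with 4.61% of all genes called. On days 1 and 4 VEGFB averaged 12.08 and 12.71 at 0Gy, and 12.47 and 12.33 at 16Gy. The VEGFB call was lost when replicate 2 of day 1 was left out at 0Gy (-0.62) or at 16Gy (-0.65), and likewise replicate 1 of 0Gy on day 4 (-0.67) or replicate 3 of 16Gy on day 4 (-0.75). The 8Gy effect over the same days changed by 1.26 for FGF2, the 1 member called, with 0.39% of all genes called. That call was lost without replicate 3 of 0Gy on day 4 (1.3), replicate 2 of 8Gy on day 1 (1.25) or replicate 2 of 8Gy on day 4 (1.23).

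From day 4 to day 6 the 16Gy effect changed by 1.36 for ESM1 (SE 0.29) and by -0.93 for ANGPT1 (SE 0.2), both called, with 0.062% of all genes called. Each of these 2 calls was lost when a single sample was left out in 9 of the 12 possible ways, with values of 1.18 to 1.4 for ESM1 and -1.05 to -0.76 for ANGPT1 in those. The 8Gy effect over these days gave no call for a member, and limma called 0% of all genes, with 386 at an unadjusted p under 0.05.

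**Figure D3:**
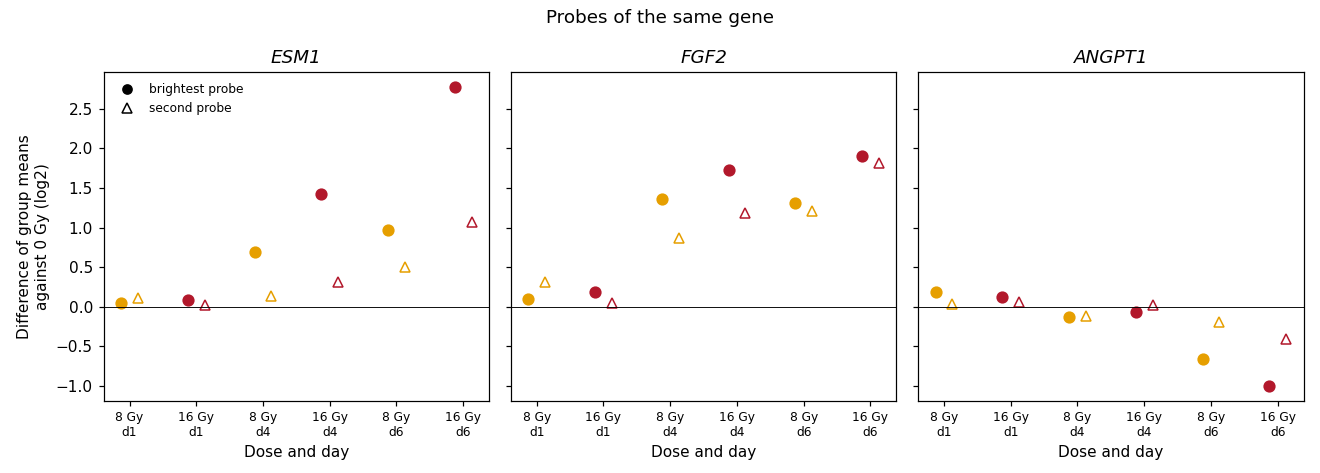
Difference of group means against 0Gy of the same day (vertical axis, log2 units) for the brightest probe (filled circles) and the second probe (open triangles) of ESM1, FGF2 and ANGPT1, by dose and day (horizontal axis; 8Gy orange, 16Gy red). The paired probes of FGF2 are close on day 6 (1.91 and 1.81 at 16Gy), whereas the second probe of ESM1 shows 1.07 where the first shows 2.78.

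Genes whose short-term pattern was most like that of ESM1 were found by Pearson's r over the 27 short-term samples, each value taken relative to the mean of the 0Gy samples of its day. The 5 closest were H4C8, a histone H4 gene (0.963), IL36G, a cytokine of the interleukin-1 family (0.958), IL1RL1, the receptor of interleukin-33 (0.955), SGK1, a serine/threonine kinase (0.947), and MMP12, a matrix metalloproteinase (0.943). At 16Gy on day 6 the log2 fold changes of these 5 genes, in the same order, were 1.24, 0.92, 1.26, 1.47 and 2.25. For ANGPT1 the 5 closest were ANKDD1A (0.909), IFITM2, an interferon-induced membrane protein (0.894), TGFB1I1, a focal adhesion protein (0.879), MFAP4, a microfibril protein (0.879), and ALDH7A1, an aldehyde dehydrogenase (0.878). These r values describe samples that share arrays, doses and the subtracted 0Gy means.

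Receptors and other regulators of angiogenesis were compared with the members through 8 lists of 55 genes, of which 31 were tested and 13 were called at least once against 0Gy. The lists, too, were chosen with earlier results of these data known. Their counts and adjusted p-values, here and below, are therefore a description and no independent test. At 16Gy 3 of 31 were called higher and 0 lower on day 1, 7 higher and 0 lower on day 4, and 8 higher and 4 lower on day 6, where 1.22%, 4.67% and 7.86% of all genes were called on the 3 days. At 8Gy the counts were 0 on day 1 (4 at an unadjusted p under 0.05), 3 higher on day 4, and 4 higher and 2 lower on day 6, against 0.133%, 1.79% and 3.23% of all genes. On day 35 limma called 0 of 31 at either dose, with 1 at an unadjusted p under 0.05 for each.

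The endothelial VEGF receptors FLT1 and FLT4 were above background in 0 of 39 samples and KDR in 4, and none of them was tested. The co-receptor NRP2 rose on day 4 at 8Gy (log2 fold change 0.71, limma adjusted p = 0.009) and 16Gy (0.68, adjusted p = 0.0048) and on day 6 at 8Gy (0.61, adjusted p = 0.017) and 16Gy (0.59, adjusted p = 0.0096). The other co-receptor, NRP1, was tested and not called against 0Gy.

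Of the angiopoietin receptors, TIE1 was above background in 0 samples and TEK in 33, and TEK was not called. ANGPTL4, a secreted inhibitor of lipoprotein lipase related to the angiopoietins, was higher than 0Gy at 16Gy on day 1 (1.05, limma adjusted p = 0.063), day 4 (1.34, adjusted p = 0.0028) and day 6 (1.75, adjusted p = 6.6e-05). At 8Gy it was higher on day 6 (1.38, adjusted p = 0.0028). Its means on days 1, 4 and 6 declined at each dose. They were 10.12, 9.08 and 8.31 at 0Gy, 11.09, 9.9 and 9.69 at 8Gy, and 11.17, 10.42 and 10.05 at 16Gy. In 0Gy cells it was lower on day 4 than on day 1 (-1.04, adjusted p = 0.015).

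Of the 4 tested FGF ligands and receptors, FGFR1 among them, limma called 0 at either dose on any day, with 1 at an unadjusted p under 0.05 for 8Gy on day 4 and 1 for 8Gy on day 6. Of the 4 tested thrombospondins and their receptors none was called higher. The THBS1 receptor CD47 was lower than 0Gy on day 6 at 8Gy (log2 fold change -0.77, limma adjusted p = 0.00088) and 16Gy (-0.94, adjusted p = 2.6e-05). On days 1, 4 and 6 CD47 averaged 9.33, 9.74 and 10.18 at 0Gy, and 9.4, 9.48 and 9.23 at 16Gy. THBS3 was lower than 0Gy at 16Gy on day 6 (-0.64, adjusted p = 0.003). The other receptor, CD36, was above background in 0 samples.

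Of 7 tested other secreted factors, 4 were higher at 16Gy on day 4, and 4 were higher and 1 lower on day 6, against 4.67% and 7.86% of all genes called in either direction. ADM, the vasodilator adrenomedullin, rose at 16Gy on days 1, 4 and 6 (log2 fold changes 0.71, 1.08 and 1.17, limma adjusted p = 0.02, 2e-05 and 2.7e-06). At 8Gy it was called higher on days 4 and 6 (0.86 and 0.9, adjusted p = 0.0012 and 0.00036). SCG2, the precursor of secretoneurin, rose at 16Gy on days 4 and 6 (0.94 and 0.99, adjusted p = 3.3e-05 and 7.3e-06). At 8Gy it was called higher on day 4 (0.62, adjusted p = 0.011) and not on day 6 (0.55). ANG, the secreted ribonuclease angiogenin, was lower than 0Gy at 16Gy on day 6 (-0.83, adjusted p = 0.00034). On days 1, 4 and 6 ANG averaged 7.44, 8.11 and 8.23 at 0Gy, and 7.7, 7.63 and 7.4 at 16Gy.

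Among 3 tested inhibitors, TIMP3, an inhibitor of metalloproteinases that also blocks KDR, rose at 16Gy on day 4 (log2 fold change 1.34, limma adjusted p = 0.00075) and day 6 (1.31, adjusted p = 0.00052). PDGFRB, the PDGF receptor of mesenchymal cells, was higher at 16Gy on day 1 (0.61, adjusted p = 0.041) and lower on day 6 (-0.66, adjusted p = 0.0028). At 8Gy it was also called lower on day 6 (-0.62, adjusted p = 0.013). On days 1, 4 and 6 PDGFRB averaged 8.41, 9.19 and 9.33 at 0Gy, and 9.02, 8.9 and 8.67 at 16Gy. In 0Gy cells it was higher on day 4 than on day 1 (0.77, limma adjusted p = 0.00091). EPAS1, a hypoxia-inducible factor, rose at 16Gy on day 6 (0.59, adjusted p = 0.003), the only call among 5 tested Notch and hypoxia regulators.

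**Figure D4:**
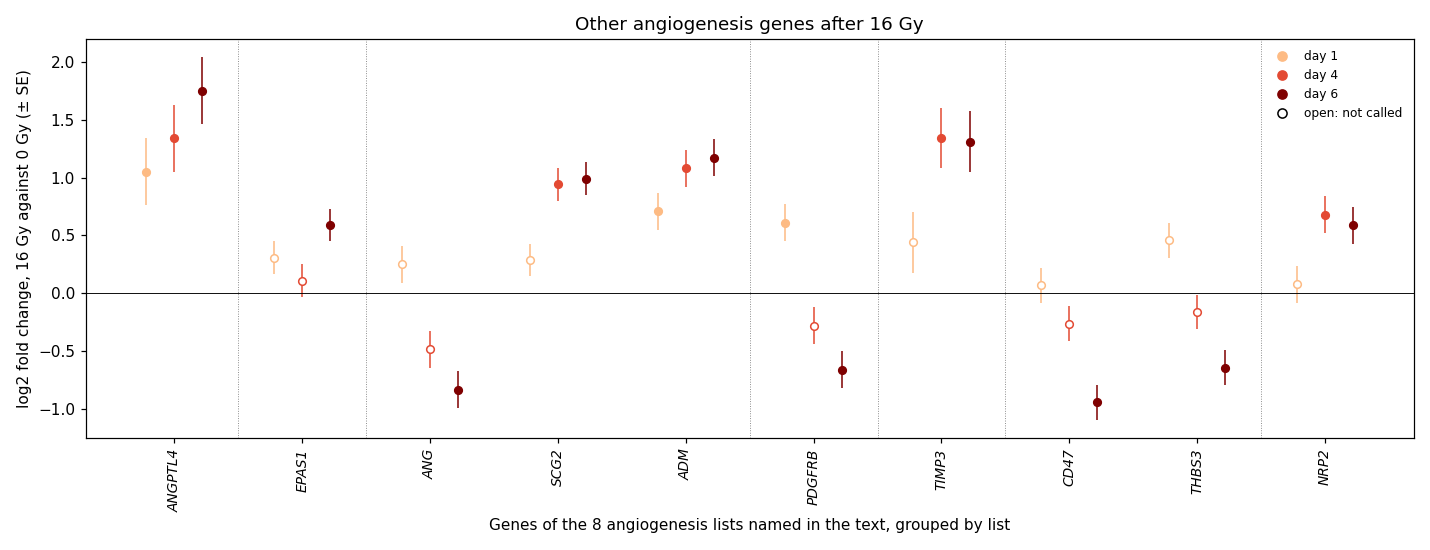
Log2 fold change at 16Gy against 0Gy (vertical axis, ± SE from limma) on days 1, 4 and 6 (light to dark) for the 10 named genes of the lists (horizontal axis, grouped by list), filled where called. ANGPTL4 stands at 1.75 on day 6, and ANG, PDGFRB, CD47 and THBS3 are below 0 on that day.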

How the data were processed

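Expression was measured in 39 U87-MG samples in 12 groups of dose and day. The deposited log2 values had been exported from GenomeStudio by the authors, quantile normalized and log2 transformed for short-term and day 35 samples separately, with ComBat for the short-term batches, which the sources used here do not name. The table of signals before normalization was left out, since its 96 columns (48 arrays) name no sample.

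Probes naming 1 gene (30100 of 47300) were kept, and the brightest stood for each of 20041 genes. limma (version 3.58.1, R 4.3.3), with a mean-variance trend, was fitted to the 27 short-term samples with a term for replicate number, and to the 12 samples of day 35 without one. The number of arrays limits the precision, and the median SE of a comparison was 0.13 for short-term and 0.15 for day 35 samples. The fit was tested on simulated data. Deviations from the group means of same-numbered samples correlated at -0.134 to 0.389 on the short-term days and at 0.28 to 0.708 on day 35, so the numbers pair the samples of day 35. Raising signals under 16 to that floor changed 0 values. Named were every member, the called genes of each list with the largest changes (at most 3 per list), and the 5 genes most like ESM1 and ANGPT1. Members and lists were chosen with earlier results of these data known. Alternatives covered the block, the trend, the filter, the floor, probes, normalization, each day alone, a one-way analysis of variance with Bonferroni-Holm adjustment over the 12 groups, and leaving out each sample. Of the 55 list genes, 52 had a probe in the annotation used and the others were not analysed here. Of the 8 members, 6 matched the promoter table.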

Additional observations from a re-analysis of the deposited data

Results flagged for a closer look

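In groups of 4, 2 samples stood further from the others than Dixon's critical value for 4 samples allows, which chance alone gives in about 1 of 20 groups. The groups of 4 are those of day 35, for each of the 8 genes at each of the 3 doses. At 16Gy on day 35, replicate 1 of ESM1 read 7.83, with the others at 6.83, 6.93 and 6.96. At 8Gy on day 35, replicate 3 of ANGPT2 read 6.67, with the others at 6.74, 6.75 and 6.75, all under background.

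The effect of dose on 4 genes was called different between days by limma. These differences of log2 fold changes are built from comparisons known when the members were chosen, and are a description. From day 1 to day 4 the 16Gy effect changed by 1.35 for ESM1, 1.54 for FGF2 and -0.77 for VEGFB, and the 8Gy effect by 1.26 for FGF2. From day 4 to day 6 the 16Gy effect changed by 1.36 for ESM1 and by -0.93 for ANGPT1, and each of these calls was lost in 9 of the 12 fits that left out 1 sample. These effects are built from 0Gy samples that the days do not share, and each is made of 12 samples.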

How the results depend on the processing

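In none of the alternatives run did a called log2 fold change of a member change sign. Counts of called members that changed by over 1.5 times are given first. Requiring every sample above background left out ESM1, PGF and THBS1 of the short-term set, and changed the count at 16Gy to 1 (day 4, from 2) and to 2 (day 6, from 4), at 8Gy on day 4 to 1 (from 2), between 16Gy and 8Gy on day 6 to 0 (from 1), for 0Gy cells between day 4 and day 1 to 1 (from 2), and for the change of the 16Gy effect from day 4 to day 6 to 0 (from 2). The one-way analysis of variance gave 1 at 16Gy and at 8Gy on both day 4 and day 6, and 1 between 16Gy and 8Gy on day 4 (from 0), each time ESM1. Its adjusted p for a gene is the same in every comparison, so only the fold limit distinguishes the comparisons. Fitting each day alone gave 1 and 3 between 16Gy and 8Gy on day 4 (ESM1) and day 6 (ESM1, FGF2 and THBS1). The mean of all probes gave 1 at 8Gy on day 4, 1 for 0Gy cells, and 0 for the changes of the 16Gy effect (day 4 to 6) and the 8Gy effect (day 1 to 4). Without the trend the count was 1 at 8Gy on day 4 and 0 for the change of the 16Gy effect from day 4 to day 6, where centring on the median gave 1. Smaller changes were 2 in place of 3 at 8Gy on day 6 and for the change of the 16Gy effect from day 1 to day 4, both with every sample above background and with the mean of all probes, and at 16Gy on day 6, where the main count was 4, 5 with all 39 samples normalized together and 3 without the block. The causes were not tested.

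Without the replicate block, the counts were 0 for the change of the 16Gy effect from day 4 to day 6 and 0 for that of the 8Gy effect from day 1 to day 4, and THBS1 at 16Gy on day 6 had an adjusted p of 0.11. With a replicate block on day 35 the count stayed 0 at both doses. Leaving out 1 sample gave 3 to 5 at 16Gy on day 6, 2 to 3 at 16Gy on day 4, at 8Gy on day 6 and for the change of the 16Gy effect from day 1 to day 4, 1 at 8Gy on day 4, 1 to 2 for 0Gy cells between day 4 and day 1, 0 to 2 for the change of the 16Gy effect from day 4 to day 6, and 0 to 1 for that of the 8Gy effect from day 1 to day 4, the 1 being FGF2. VEGFB at 16Gy on day 6 was called with all 39 samples normalized together (-0.59).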

Other observations

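On day 35 the members varied more between replicate numbers than between doses. FGF2 was lowest in replicate 4 at each dose, at 7.69, 7.57 and 7.84 for 0, 8 and 16Gy, and VEGFC was lowest there too, at 9.66, 9.82 and 8.90. ANGPT1 was also lowest in replicate 4, at 7.06, 6.86 and 7.08, whereas VEGFB was highest in it, at 12.94, 12.95 and 13.03. The labels do not say whether same-numbered samples of that day belong to 1 experiment.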
